A study of Mus musculus with 7 samples.

Results

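Some stretches of the genome of mouse regulatory T (Treg) cells carried several IRF4 binding sites side by side, and those stretches are described here. Their members were chosen by position in the list of IRF4 peaks of wild-type (WT) cells. A cluster was a run of at least 3 WT IRF4 summits on chromosomes 1 to 19 or X, each no more than 12500 bp from the next. A summit is the single base at which a peak is highest. Clusters that touched a crowded p65 region, meaning at least 3 p65 summits each no more than 50 kb from the next, were left out. The rule gave 122 clusters with 402 summits, out of 5630 WT IRF4 summits in all. Before crowded p65 regions were taken away there were 139 clusters, and the 17 that were left out held 86 summits.

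IRF4 is a transcription factor that is induced by antigen receptor signalling and is needed for the effector form of Treg cells. It binds DNA weakly on its own and is known to bind composite sites together with AP-1 factors such as BATF in T cells. RelA, also called p65, is a subunit of NF-κB that moves into the nucleus after stimulation and activates transcription. Sites of lineage-defining factors that lie close together along the DNA are often read as parts of a large enhancer, and the joining distance used here is the one customary in that field.

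All cells were splenic Treg cells of mice on a C57BL/6 background. Antibodies to IRF4 were applied to 3 WT samples and to 2 samples that lacked RelA (genotype p65KO), both after 48 h of stimulation through CD3 and CD28. An antibody to RelA was applied to 2 WT samples that had received PMA with ionomycin for 30 min. The sources used here do not give how RelA was removed from the p65KO cells or whether samples came from separate animals. The study set out to find genes bound by the 2 factors, and the question here is how far clustered IRF4 sites were still called in cells without RelA.

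Each group was deposited as 1 summit list, so no value has a replicate error and read depth is unknown. The WT IRF4 list had 5630 summits, the p65KO IRF4 list 4312 and the p65 list 797. The authors' score of a peak is a −log10 significance value, so a higher score means a stronger call and not a measured amount of IRF4. Scores ran from 7.64 to 319 in WT IRF4 and from 7.504 to 351 in p65KO IRF4. Because the p65KO list is shorter and rests on fewer samples, a missing p65KO call does not by itself show lost binding. Positions are mm9 coordinates, and gene names were not assigned because an mm9 annotation was not used here.

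Most clusters were small, and they were found on every autosome. Of the 122 clusters, 98 had 3 summits, 17 had 4, 5 had 5, 1 had 7 and 1 had 8. The median span from first to last summit was 13907 bp (interquartile range 9603 to 17700, range 1400 to 37980). Neighbouring summits lay a median of 6561 bp apart, and 22 of 280 such gaps were no more than 1 kb. Most gaps, 180 of 280, were over 5 kb, so that a cluster was usually a set of separate peaks. Chromosome 1 had 14 clusters, chromosome 13 had 12 and chromosome 11 had 11, whereas chromosome X, with 56 summits outside crowded p65 regions, had none. Clustered summits made up 11.97% of the WT summits on chromosome 13 and 3.63% of those on chromosome 17, the highest and the lowest share among the autosomes.

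Clustered summits were not stronger as a class. Their median WT score was 27.2 (interquartile range 18.0 to 45.9) against 26.6 (18.1 to 43.9) at 5021 unclustered summits, which are the summits outside crowded p65 regions that stood alone or in pairs. Sorted within each cluster, the highest summit had a median score of 52.6 and the lowest a median of 16.5, a spread that was not compared with groups of unclustered summits. In 35 of the 122 clusters the highest summit was in the highest of 10 equal bands of WT score, which was not compared with groups of unclustered summits either. Of the 100 highest WT summits 7 were clustered, beside 402 of the 5630 in the whole list. At the edge of the rule, the cluster at chr1:183069087-183087459 had a gap of 12479 bp and just qualified, while 3 summits at chr8:74846603-74867839 were kept out by a gap of 12627 bp. All 3 summits of the former and 2 of the 3 of the latter had a p65KO partner.

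The p65KO list was not used to cut the clusters from the WT list. The rule itself was chosen with earlier results of these data known, so the p65KO calls are not a fully independent readout. A WT summit was counted as called again where a p65KO summit lay within 200 bp and each was the other's nearest, and that p65KO summit is its partner. Of the 402 clustered summits 279 had a partner (69.4%, 95% Wilson interval 64.7 to 73.7), beside 65.4% of all 5423 WT summits compared. In 41 clusters (33.6%) every summit was called again, in 77 (63.1%) some were, and in 4 (3.28%) none was. In 24 clusters fewer summits had a partner than lacked one. These counts moved with the length of the WT list: cut to its 4312 highest summits, the length of the p65KO list, it formed 63 clusters, of which 31 were fully matched and 0 had no partner.

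**Figure D1:**
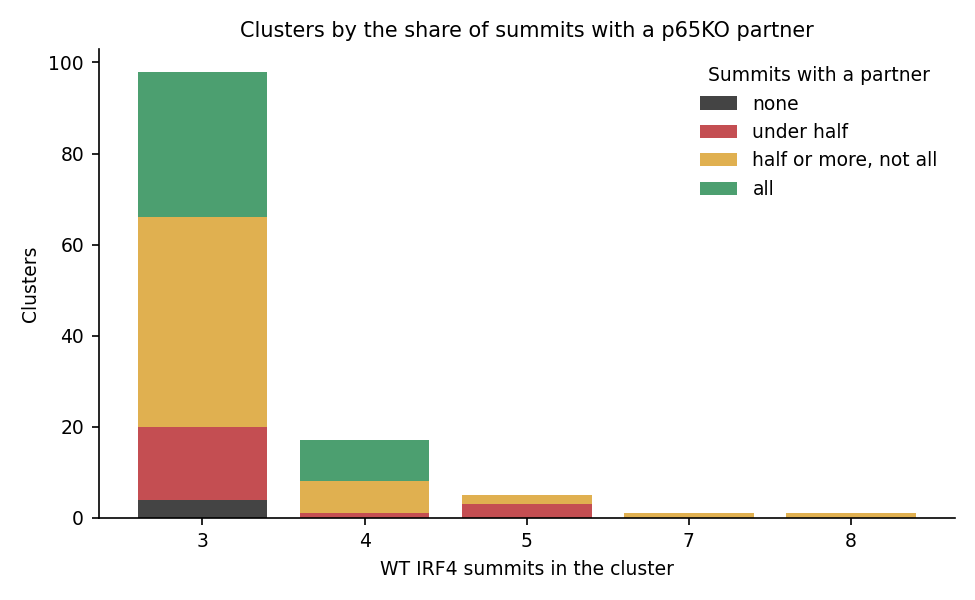
Number of clusters (y axis) by number of WT IRF4 summits in the cluster (x axis), with colours for the share of its summits that had a p65KO partner. Among clusters of 3 summits, 32 kept all, 46 kept 2, 16 kept 1 and 4 kept none, and 3 of the 5 clusters of 5 kept only 1.

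Size alone did not order the clusters. Of the 17 clusters of 4 summits, 9 kept all 4, 1 kept 3, 6 kept 2 and 1 kept 1. Of the 5 clusters of 5, 2 kept 4 summits and 3 kept 1. The share with a partner was 69.4% (63.9 to 74.4) in clusters of 3, 76.5% (65.1 to 85.0) in clusters of 4, 44.0% (26.7 to 62.9) in clusters of 5 and 80.0% (54.8 to 93.0) in the clusters of 7 and 8. It was 64.6% (63.1 to 66.1) at lone summits and 66.4% (63.6 to 69.1) in pairs. The interval for clusters of 5 lay below those for lone summits, pairs and clusters of 3 and 4, but overlapped that for the clusters of 7 and 8. It rests on 25 summits of 5 clusters, and the last on 15 summits of 2 clusters. The intervals treat summits of 1 cluster as independent and may be too narrow, and differences between cluster sizes were not tested.

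The clusters, widened by 200 bp, held 287 p65KO summits, of which 279 were partners and 8 were not. Over the whole genome 84.3% of the 4205 p65KO summits compared had a WT partner. The share in clusters cannot be read against it, because a cluster is bounded by WT summits and so favours partners. These 8 lay in 8 clusters, between 370 and 4623 bp from the nearest WT summit of the cluster, and scored from 9.20 to 35.1. The clusters held from 0 to 7 p65KO summits, with 2 the most common number (51 clusters), and 43 clusters had at least as many p65KO as WT summits.

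The 2 clusters with most summits were largely called again. The cluster at chr5:53786017-53821568 had 8 WT summits, with scores of 15.9, 25.6, 220, 17.8, 27.1, 13.5, 31.2 and 87.0 in order along the chromosome. Of these 7 had a partner, and the p65KO scores were 26.1, none, 211, 32.4, 54.2, 16.1, 35.8 and 97.5. The strongest summit was the strongest in both genotypes, and 6 of the 7 partners scored higher in the p65KO list. The summit without a partner, with a score of 25.6, lay 1191 bp from the nearest p65KO summit.

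The cluster at chr1:60932400-60970379 had 7 summits with WT scores of 23.9, 24.4, 12.9, 53.2, 62.8, 24.9 and 67.5. Its p65KO scores were none, 25.9, none, 64.1, 72.6, 42.8 and 85.3, so that each of the 5 partners scored higher without RelA. A further cluster began 16988 bp after it, at chr1:60987367-60995989. Its 3 summits scored 82.4, 26.2 and 37.5 in WT and 36.0, 24.2 and 53.4 in p65KO cells. The strongest summit of this second cluster, which was named for its place beside the first, scored lower in the p65KO list.

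**Figure D2:**
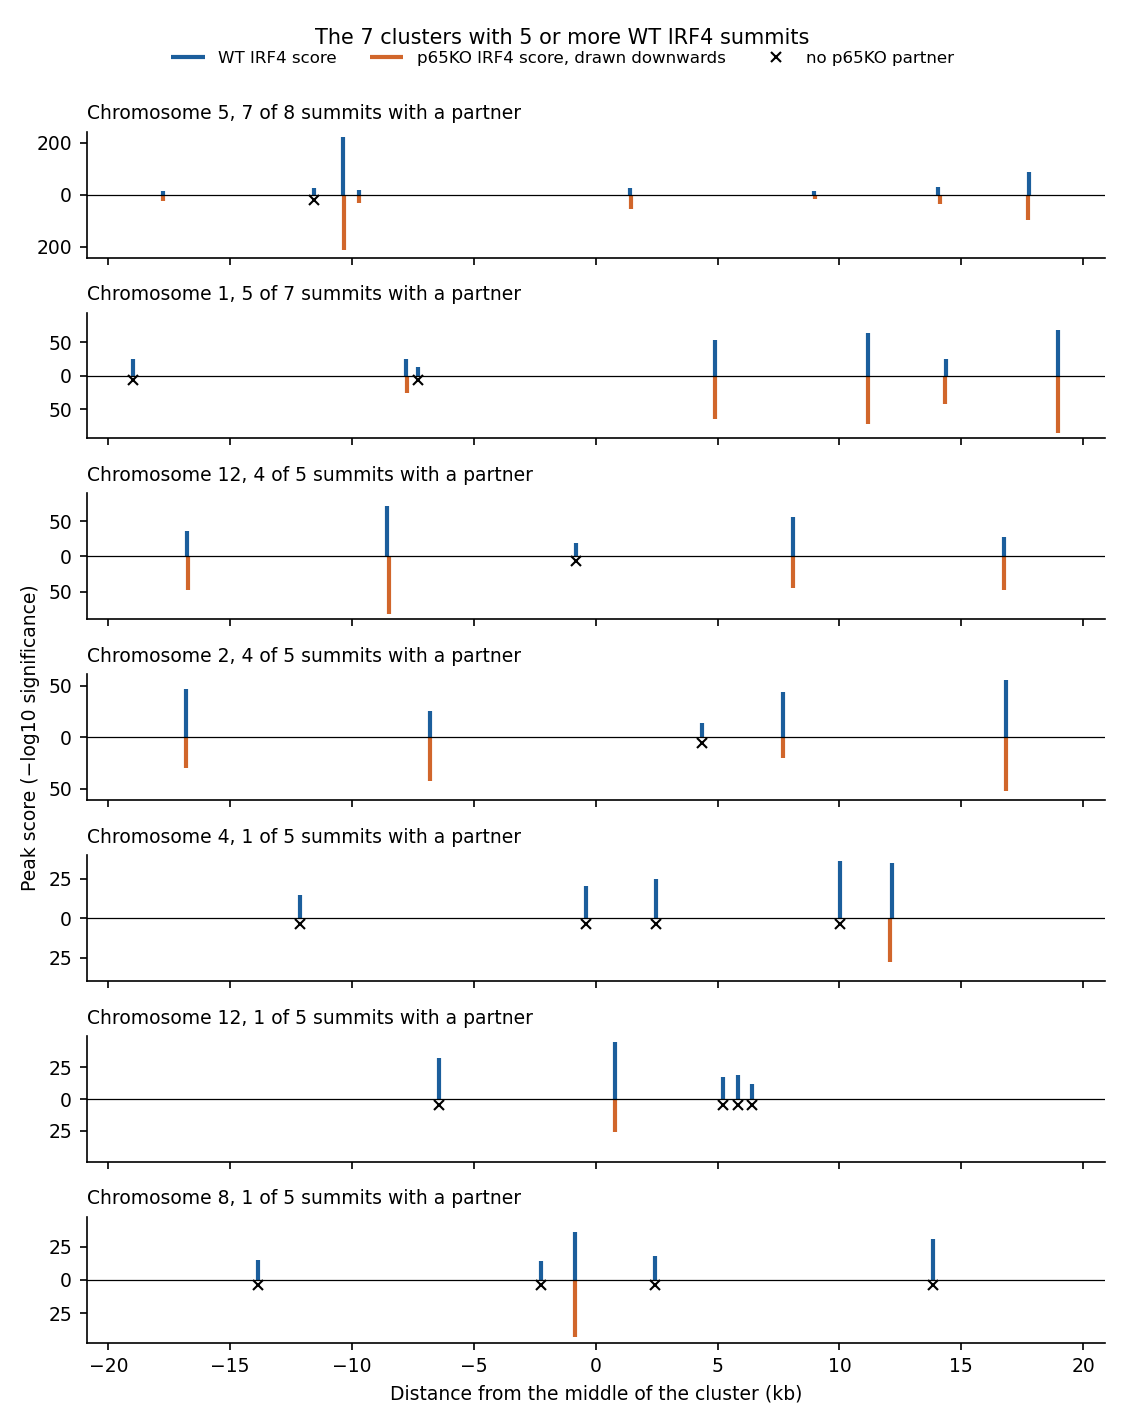
The 7 clusters with at least 5 WT summits, each centred on its middle (x axis, distance in kb). WT scores point up and p65KO scores down (y axis, −log10 significance, a scale for each cluster), and crosses mark summits without a partner. The upper 4 clusters kept all but 1 or 2 summits, and the lower 3 kept 1 of 5.

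The 5 clusters of 5 summits fell into those that kept 4 and those that kept 1. At chr12:74980918-75014444 the WT scores were 36.7, 71.2, 18.97, 56.6 and 27.1 and the p65KO scores 47.6, 81.3, none, 45.1 and 47.3. At chr2:128193668-128227304 they were 46.9, 25.2, 13.8, 43.5 and 55.4 in WT and 30.2, 42.4, none, 19.6 and 51.7 in p65KO cells. In both the weakest WT summit was the one without a partner.

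In the other 3 clusters of 5, summits other than the weakest were missing as well, including the strongest one on chromosome 4. At chr4:87801149-87825430 the WT scores were 14.5, 20.5, 24.5, 36.1 and 34.9, and only the last had a partner, with a p65KO score of 27.7. At chr12:109872269-109885091 they were 31.9, 44.8, 17.1, 18.8 and 11.4, and only the second had one (25.4). At chr8:47713827-47741510 they were 14.9, 14.5, 36.5, 18.0 and 31.0, and only the third had one (43.2). Unclustered summits of the same score deciles were called again at rates that would give 3.04, 2.77 and 2.60 partners in these 3 clusters, where 1 was found in each. By the same reckoning the cluster on chromosome 5 would have had 5.06 partners, where 7 were found. The cluster of 7 on chromosome 1 would have had 5.01, where 5 were found. For chr12:74980918-75014444 and chr2:128193668-128227304 the reckoning gave 3.88 and 3.65, where 4 were found in each. These differences describe single clusters and were not tested.

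The strongest clustered summits scored highly in both genotypes. Their clusters were picked for that WT score, and of unclustered summits in the highest decile 99.6% had a partner too. The highest clustered summit, at position 44164415 in the cluster chr10:44140313-44164415, scored 223 in WT and 246 in p65KO cells. The other 2 summits of that cluster scored 91.7 in WT and 58.0 in p65KO cells, and 13.1 in WT without a partner. At 500 bp or 1 kb all 3 of its summits had a partner, because the nearest p65KO summit to the weak one lay 489 bp away. The 4 summits at chr3:21851544-21872243 scored 69.8, 75.9, 23.5 and 167 in WT and 45.2, 78.8, 17.7 and 170 in p65KO cells. The 3 at chr3:30851313-30865132 scored 158, 21.7 and 19.7 in WT and 178, 26.5 and 42.5 in p65KO cells. At chr14:54844940-54853050 the scores were 19.7, 13.8 and 169 in WT and 30.0, none and 151 in p65KO cells. In each of these 4 clusters the summit above 150 stayed above 150, and the 2 summits without a partner were the weakest of their clusters.

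Of the 41 fully matched clusters, the 5 whose lowest WT score was highest included chr9:114381219-114396866, with 112, 109 and 63.5 in WT and 78.6, 87.2 and 63.7 in p65KO cells. At chr2:128275237-128291546 the 4 WT scores were 64.0, 82.7, 47.0 and 65.2 and the p65KO scores 33.3, 58.4, 105.1 and 62.4, so that the weakest WT summit became the strongest. The scores at chr11:100782752-100801423 were 54.0, 54.2 and 52.8 in WT and 48.2, 43.6 and 55.4 in p65KO cells. The other members of this group were chr19:5787351-5803758, with WT scores from 40.0 to 45.9, and chr6:99188163-99211642, from 34.1 to 65.3. These clusters were picked for being matched and for having no weak summit, so that neither is a result.

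Also fully matched were the clusters chr16:58697077-58715393, with WT scores of 127, 41.4, 22.6 and 80.1 and p65KO scores of 143, 48.7, 26.8 and 71.7, and some that were weak throughout. The weakest of these, chosen after its values were seen, was chr6:65466950-65480205, with 8.70, 16.0 and 18.7 in WT and 22.4, 12.8 and 21.7 in p65KO cells. Unclustered summits of those deciles would have given 1.06 partners in place of 3.

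The 4 clusters in which nothing was called again were weak apart from 1 summit. They were chr14:20783599-20794791 (WT scores 42.2, 11.7 and 12.3), chr1:80317934-80328911 (13.1, 14.1 and 22.5), chr13:37382726-37394925 (14.8, 21.7 and 14.0) and chr10:66327015-66333957 (10.96, 11.8 and 15.2). No p65KO summit lay inside any of them, and the nearest was between 37648 and 292045 bp from their summits. The score of 42.2 stood out, since 85.7% of clustered and 89.2% of unclustered summits of that decile had a partner.

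The main comparison set clustered against unclustered WT summits of like score. The share with a partner rose with the score in both. In the lowest decile of WT scores it was 26.1% (15.6 to 40.3) of 46 clustered and 29.4% (25.5 to 33.5) of 497 unclustered summits. In the sixth decile, with scores from 26.6 to 31.9, it was 85.7% (70.6 to 93.7) of 35 and 70.02% (65.9 to 73.8) of 507, the widest gap. In the highest decile it was 100% (92.0 to 100) of 44 and 99.6% (98.5 to 99.9) of 498.

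**Figure D3:**
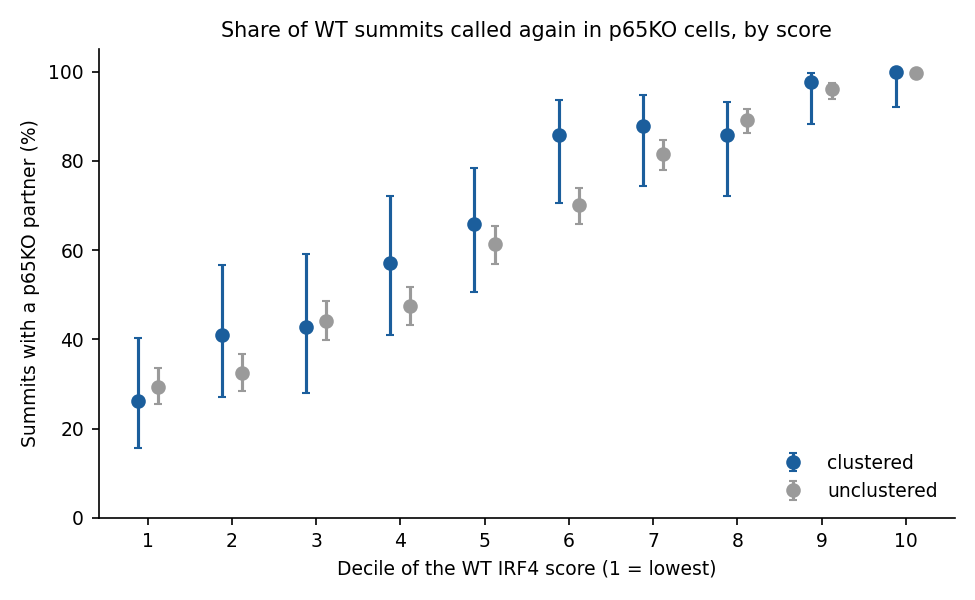
Share of WT IRF4 summits with a p65KO partner (y axis, %) by decile of the WT score (x axis), for 402 clustered and 5021 unclustered summits, with 95% Wilson intervals. Both series climb from under 30% to nearly 100%, and the clustered points lie above the unclustered ones in 7 of the 10 deciles.

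Clustered summits were called again somewhat more often, by an amount that did not pass the test. The share was 69.4% against 65.03% (63.7 to 66.3) at unclustered summits. Within deciles of the WT score the odds ratio was 1.25 (95% interval 0.961 to 1.63, two-sided exact Cochran-Mantel-Haenszel test, p = 0.0927, adjusted 0.139 over 3 tests by Benjamini and Hochberg). At the decile shares of unclustered summits, 65.9% of the clustered ones would have had a partner. Summits of 1 cluster share their surroundings but enter the test as independent, and with only the highest summit of each cluster the estimate was 1.81 (0.871 to 4.14; p = 0.118 by the exact test). The result depended on how clusters were drawn: it turned to 0.615 (0.290 to 1.30; p = 0.215 by the exact test) when summits were joined at 5 kb, which left 16 clusters, and passed the threshold of 0.05 at 25 kb (1.20, 1.00 to 1.43, p = 0.0457) and with 1 summit per 500 bp (1.34, 1.03 to 1.76, p = 0.0303).

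Inside a cluster the share called again went with the summit's own score. The highest summit had a partner in 112 of 122 clusters (91.8%, 85.6 to 95.5) and the lowest in 54 (44.3%, 35.8 to 53.1). The 158 summits between them had one in 71.5% of cases. Unclustered summits of the same deciles would have given 87.4%, 44.3% and 65.9% for the highest, lowest and middle summits. The weakest members of clusters were thus called again at the rate of unclustered summits of their score.

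Outermost summits had a partner in 70.1% of 244 cases (64.1 to 75.5) and inner ones in 68.4% of 158 (60.7 to 75.1). At the decile shares of unclustered summits, 67.6% of the outermost and 63.2% of the inner ones would have had a partner. The difference between outermost and inner summits was not tested. By distance to the nearest other summit of the cluster, 59.5% (44.5 to 73.0) of the 42 summits within 1 kb had a partner, at a median WT score of 20.9. The share was 68.1% (56.4 to 77.9) of 69 at 1 to 2.5 kb and 63.9% (52.4 to 74.0) of 72 at 2.5 to 5 kb, with median scores of 26.0 and 28.1. Of the 219 whose nearest neighbour was over 5 kb away it was 73.5% (67.3 to 78.9), at a median of 30.7. The 4 intervals overlapped, and the shares did not follow the order of the distances. No difference between these distance classes was tested.

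Where a clustered summit lacked a partner, the nearest p65KO summit lay a median of 6523 bp away. Of these 123 summits, 10 had a p65KO summit within 1 kb and 20 had none within 12500 bp. The median WT score was 17.2 at these summits and 35.7 at the 279 with a partner. The strongest without a partner, chosen after their values were seen, were position 74666084 on chromosome 13 (score 59.9), position 62666953 on chromosome 15 (48.1) and position 117309901 on chromosome 10 (46.0). The nearest p65KO summit lay 370, 13593 and 5346 bp from them in turn, so the first lacked a partner only by the shorter distance limits.

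At the 279 clustered summits called in both genotypes the WT and p65KO scores could be set side by side. The 123 without a partner have no ratio, so a fall below the p65KO cut-off cannot appear in these values. The median score was 35.7 in WT and 31.9 in p65KO cells, and the partner lay a median of 16 bp away. On the log2 scale the median of p65KO over WT score was -0.045 (interquartile range -0.44 to 0.31), where 0 means equal scores, and 133 summits (47.7%) scored higher in the p65KO list. At the 3265 unclustered summits with a partner the median was -0.12 (-0.51 to 0.24), and 41.8% scored higher. The difference between these medians was 0.071 in favour of clustered summits and did not pass the test (two-sided permutation test within score deciles, p = 0.0923, adjusted 0.139 over 3 tests).

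**Figure D4:**
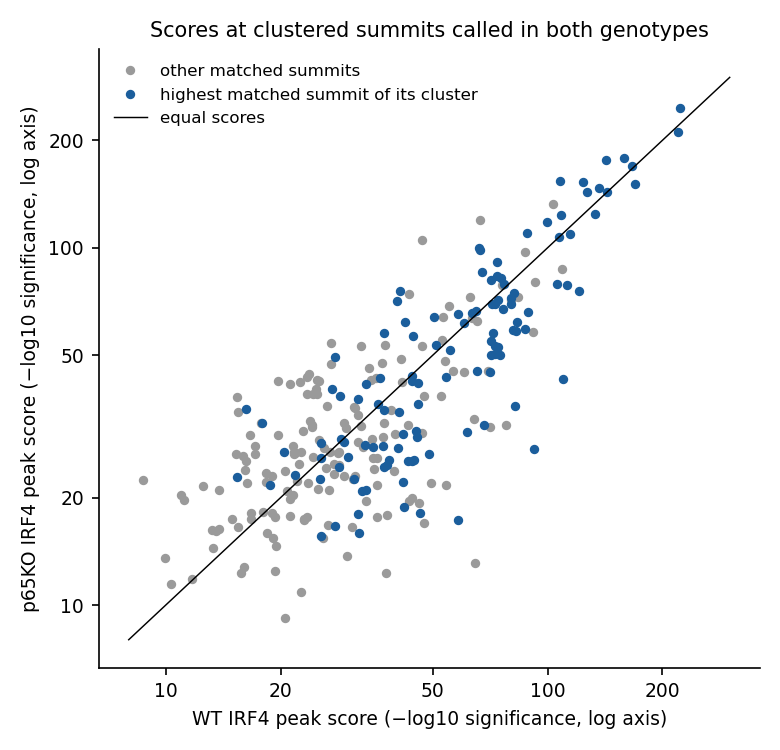
WT score (x axis) against p65KO score (y axis), both −log10 significance on log axes, at the 279 clustered summits with a partner, with the highest matched summit of each cluster in blue. The points follow the line of equal scores, and 24 of them have a p65KO score under 50% of the WT score while 6 have one over 200% of it.

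The difference in score ratio rested on the counting unit and the joining distance. With 1 median value for each of the 118 clusters that had a partner it was 0.024 (permutation test, p = 0.820). With summits joined at 25 kb it was 0.079 (permutation p = 0.00595), and at 5 kb it was 0.26 (p = 0.0391, 28 clustered summits).

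Single summits moved further than these medians. The largest falls, chosen after their values were seen, were at position 113233557 of chromosome 13 (64.5 in WT and 13.1 in p65KO cells) and position 147515522 of chromosome 7 (58.4 and 17.3). The largest rises were at position 65466950 of chromosome 6 (8.70 and 22.4) and position 87894952 of chromosome 1 (15.4 and 38.3). The same matched summit was highest in both genotypes in 72 of the 98 clusters with at least 2 partners. Where exactly 2 summits had a partner this was so in 41 of 52 clusters (78.8%), and in pairs of summits outside clusters in 189 of 243 (77.8%).

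The rule was then turned round, with clusters drawn from the p65KO list. It gave 61 clusters with 204 summits, of which 47 had 3 summits, 11 had 4, 2 had 5 and 1 had 9. Of their summits 178 had a WT partner (87.3%, 82.0 to 91.2), beside 84.3% of all 4205 p65KO summits compared and 84.2% (83.0 to 85.3) of the 4001 unclustered ones. The odds ratio within deciles of the p65KO score was 1.09 (0.681 to 1.81, two-sided exact Cochran-Mantel-Haenszel test, p = 0.818, adjusted 0.818 over 3 tests). It fell under 1 at 5 kb (0.584), at 100 bp (0.953), with IRF4 lists of equal length (0.940) and above each list's median score (0.438, exact test, p = 0.0435, with an interval of 0.187 to 1.06 that includes 1), and passed the threshold upwards at 25 kb (1.43, 1.04 to 2.01, exact test, p = 0.0244).

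The p65KO list formed fewer clusters than the full WT list and is also the shorter list. The cause of the lower number was not tested. With the WT list reduced to its 4312 highest summits, the length of the p65KO list, it formed 63 clusters in place of 122, against 61 in the p65KO list. Of the full set, 48 of 122 WT clusters (39.3%) overlapped a p65KO cluster, which was 48 of 61 (78.7%) from the other side. With lists of equal length 34 of 63 (54.0%) and 34 of 61 (55.7%) overlapped.

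Of the 13 p65KO clusters that overlapped no WT cluster, the 5 with the highest summit held summits with a WT partner and summits without. Those without lay from 440 to 9787 bp from the nearest WT summit. At chr9:123833278-123844266 the p65KO scores were 30.8, 17.4, 64.1 and 104.9, and the last 2 had WT partners of 91.0 and 46.2. At chr13:99999261-100016285 they were 64.8, 32.5 and 99.1, and the third had a WT partner of 45.0. At chr19:11560306-11585948 they were 31.3, 29.1, 18.1 and 99.4, with WT partners of 26.8 and 91.4 for the first and last. The other 2 of the 5 highest were chr3:8245369-8246376, with p65KO scores of 23.1, 34.7 and 103, and chr1:189041097-189059173, with 92.4, 23.8 and 17.4. On chromosome 3 the first and last summits had WT partners of 53.0 and 128, and p65 summits lay 5 and 9 bp from them. On chromosome 1 the first 2 had WT partners of 75.7 and 19.6. Each of these 5 had at least 1 WT partner, and none of the 61 p65KO clusters lacked a partner altogether.

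RelA itself was seldom found in the clusters of the WT list, which the rule in part fixed by leaving out crowded p65 regions. A p65 summit lay within 200 bp of 2 of 402 clustered summits (0.498%) and of 78 of 5021 unclustered ones (1.55%), and 3 clusters had a p65 summit inside them or within 10 kb. The p65 cells were stimulated for another time with another agent, so the position of RelA after 48 h is unknown. At chr13:74666084-74667983 the 3 WT summits scored 59.9, 61.6 and 42.1, and 2 p65 summits lay there, with p65 scores of 29.3 and 19.4. The second p65 summit was 9 bp from the middle IRF4 summit, the only 1 with a partner, whose p65KO score was 30.5. The first, at position 74666451, lay 367 bp from the IRF4 summit of 59.9. A p65KO summit without a WT partner (35.1) lay beside this p65 summit, at position 74666454, and 370 bp from the summit of 59.9.

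At chr14:54844940-54853050 a p65 summit (19.2) lay 49 bp from the weak middle IRF4 summit of 13.8, which had no partner. At chr3:135352307-135374775 a p65 summit (40.8) lay 2228 bp from an IRF4 summit of 22.2 that had no partner, while the other 2 summits, 70.6 and 72.8 in WT, scored 31.5 and 53.0 in p65KO cells. Leaving these 3 clusters out moved the main comparison to an odds ratio of 1.29 (0.992 to 1.69; p = 0.0508 by the exact test). Putting the 17 clusters in crowded p65 regions back moved it to 1.07 (0.846 to 1.36; p = 0.599 by the exact test). In those 17 clusters 41 of 86 summits had a partner (47.7%, 37.4 to 58.1). This share was not set beside unclustered summits of like score, and its difference from the other shares was not tested.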

How the data were processed

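Chromatin immunoprecipitation sequencing was deposited as 3 lists of peak summits, 1 for each group of samples. Per the submitters' processing notes, Subread, MACS2 2.1.0 and featureCounts were used with build mm9. The lists' names give cut-offs of q = 1e-06 for IRF4 and q = 0.05 for p65, and the peak names say that no input was used, so reads that any antibody would pull down are not subtracted. The score is the authors' deposited −log10 significance; the sources used here give neither whether it is of a p-value or a q-value nor how replicates were combined. Depth per sample is unknown, and intervals cover counting error over summits only.

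Positions were made 1-based. Partners were mutual nearest summits of the 2 IRF4 lists within 200 bp. Shares have Wilson intervals. Exact Cochran-Mantel-Haenszel tests used 10 strata of score (R 4.3.3), and the score ratio was tested with 100000 permutations within strata (numpy 2.4.6 and scipy 1.17.1 under Python 3.11.15). Matching and the exact test were tested on simulated data.

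Clusters were named by a rule: the 10 with most summits, the 5 with the highest summit, up to 5 with no partner, the 5 fully matched with the highest lowest score, and the 5 highest p65KO clusters outside WT clusters; others are marked. The members, lists and rules were chosen with earlier results of these data known. Alternatives covered partner and joining distance, strata, reference, lists of equal length, scores above the median, autosomes, 1 summit per 500 bp and the handling of p65. Motif searches and nearest genes were planned and not run, since a genome of build mm9 was not used here.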

Additional observations from a re-analysis of the deposited data

How the results depend on the processing

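No paired analysis was possible because the replicates of each group were combined in 1 list; for the same reason no replicate could be left out. The odds ratio of clustered WT summits turned to 0.615 with summits joined at 5 kb and passed the threshold at 25 kb (1.20) and with 1 summit per 500 bp (1.34); its other settings kept its direction and stayed short of the threshold. For clusters of the p65KO list the odds ratio was 0.953 at 100 bp, 0.584 at 5 kb and 0.940 with lists of equal length. It passed the threshold in opposite directions above each list's median score (0.438, exact test, p = 0.0435) and at 25 kb (1.43). With the highest summit of each p65KO cluster alone it had no finite value, since all had a partner. The difference in log2 score ratio stayed positive and passed the threshold at 5 kb (0.26) and 25 kb (0.079). The share of clusters with no partner was 6.25% at 5 kb. The cause of these changes was not tested. For the 21 named WT clusters, 2 of 63 values at other partner distances left the interval of the main one, both at chr10:44140313-44164415.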

Other observations

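Some clusters lay near one another. Of the 122, 20 had another cluster within 100 kb and 33 had one within 500 kb. These 20 formed 10 neighbouring pairs. At chr4:6814431-6829422 and chr4:6852171-6867855, which were 22749 bp apart, 3 of 3 and 2 of 3 summits had a p65KO partner. At chr9:32294567-32302576 and chr9:32317628-32328923, which were 15052 bp apart, 1 of 3 had a partner in each. At chr10:66327015-66333957 none of 3 summits had a partner, and 82283 bp further on, at chr10:66416240-66418358, all 3 had. The pairs were chosen after their values were seen, and whether neighbours resemble each other was not tested.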
